A study of Mus musculus with 7 samples.

Results

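Monocytes of the mouse spleen were examined through 10 genes, taken by name from the 55414 genes of a bulk RNA sequencing count table. A set of 5 marks classical monocytes, namely Ly6c2, Ccr2, F13a1, Vcan and Csf1r. The other 5, Treml4, Ace, Nr4a1, Cx3cr1 and Cd300e, mark non-classical monocytes. All 10 had enough reads to enter the test, which covered 16089 genes. The samples were of spleen and were labelled wild type (WT, genotype C57BL/6N, n = 3) or Fpr2KO (n = 4). Fpr2KO stands for a knockout of Fpr2, a formyl peptide receptor of myeloid cells. Details not given in the sources used here include the genetic background of the knockout, the cells or stage at which the gene is lost, and the sex and age of the mice. No treatment was labelled, and the single comparison is Fpr2KO against WT.

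Classical monocytes carry the surface protein Ly6C, leave the bone marrow through the chemokine receptor Ccr2 and enter inflamed tissue, where they can become macrophages or dendritic cells. Non-classical monocytes carry little Ly6C, patrol the inside of blood vessels, and arise largely from classical monocytes in a step that needs the nuclear receptor Nr4a1. The spleen holds a reservoir of monocytes in its red pulp, and in bulk tissue a change in the number of such cells and a change in RNA per cell cannot be told apart.

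The libraries held between 14968605 and 18692809 counts. Levels are given as CPM, that is, counts relative to the library's total after a trimmed-mean (TMM) correction, and 3 counts in a library came to between 0.156 and 0.201 CPM, far below every value of the 10 genes. Fpr2 had 537, 479 and 477 reads in WT and 0 in each Fpr2KO library, so the targeted gene followed the labels (at least 181-fold lower, with 3 counts per library as the floor; exact two-sided permutation p = 0.0286, the smallest that 3 against 4 samples allow). Defining markers of spleen were present in every library: 4 B cell genes summed to between 2305 and 2667 CPM and 10 red pulp macrophage genes to between 4380 and 5390 CPM. Fpr2KO replicates 1 and 2 stood apart in 7 genes of pancreatic acinar cells, a tissue that lies beside the spleen, with 489 and 285 CPM in sum against between 23.8 and 48.9 in the other 5 libraries. The 10 monocyte genes were therefore also fitted without those libraries.

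None of the 10 monocyte genes passed the test. By edgeR's quasi-likelihood test with Benjamini-Hochberg adjustment over all genes tested, 0 of 10 had an adjusted p under 0.05, against 6 of 16089 genes in all (0.0373%), each of them lower in Fpr2KO. DESeq2 called 0 of the 10 and 60 of the 15848 genes that it gave an adjusted p (0.379%), and limma-voom called 0 of the 10 and 0.0497% of all. Without WT replicate 1 edgeR called 10 genes of the table, and without WT replicate 3 it called 15, still with 0 of the 10 among them. At an unadjusted p under 0.05 the test took 2 of the 10, Ly6c2 on the lower side and Ace on the higher side, against 4.98% of all genes (3.07% lower and 1.91% higher). Libraries of WT and Fpr2KO were fully separated in 1 of the 10, Ace on the higher side, against 5.91% of all genes (3.18% lower and 2.73% higher).

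The classical and the non-classical genes differed in how their fitted values fell around 0. Among classical genes 2 were fitted higher and 3 lower in Fpr2KO, with a median log2 fold change (Fpr2KO minus WT) of -0.05. All 5 non-classical genes were fitted higher, with a median of 0.20. Over all genes tested 48.6% were fitted higher. These counts describe fitted signs of differences that did not pass the test, and whether the classical and non-classical genes differ was not tested. The sign of Nr4a1 turned in 5 of 17 alternative fits. Among classical genes the sign of Ccr2 turned in 4, that of Vcan in 4, that of Csf1r in 3 and that of F13a1 in 1. The classical split was 4 higher and 1 lower with limma-voom, and 0 higher and 5 lower without Fpr2KO replicate 3. Leaving out WT replicate 1 gave a classical median of 0.14 and a non-classical median of 0.29, and leaving out WT replicate 2 gave -0.17 and 0.06.

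**Figure D1:**
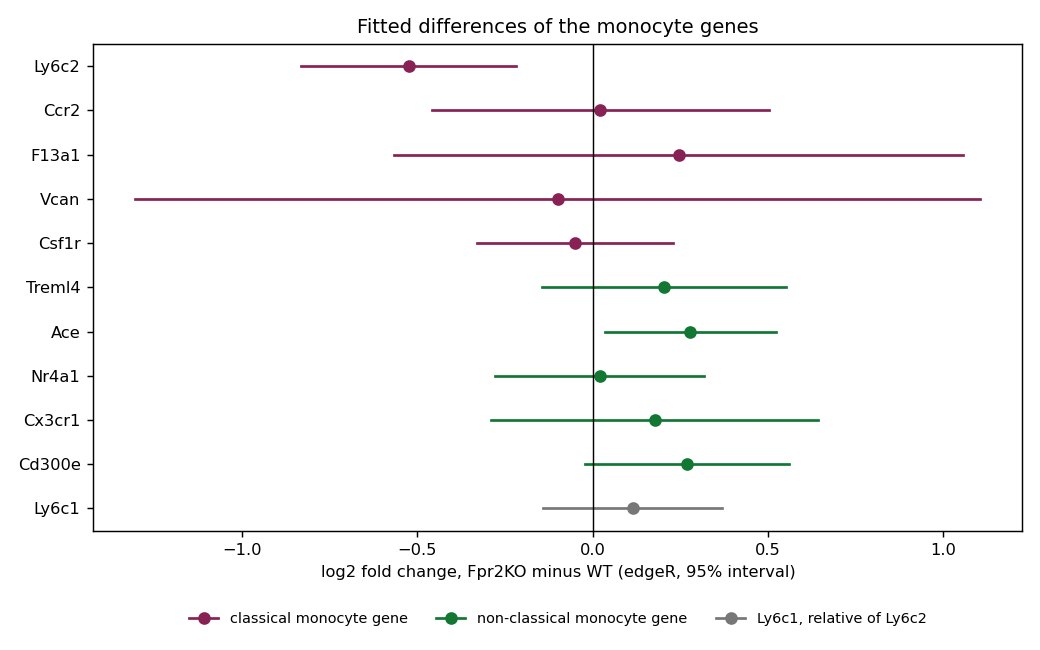
Fitted log2 fold change (x axis, Fpr2KO minus WT) of each monocyte gene and of Ly6c1 (y axis), with points for edgeR's estimate and lines for its 95% interval. The intervals of Ly6c2 (below 0) and Ace (above 0) leave out 0 before adjustment over the 16089 genes tested, and those of F13a1 and Vcan are the widest of the 11.

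Ly6c2 and its neighbour Ly6c1 encode nearly the same small, lipid-anchored surface protein, and antibodies to Ly6C see both products. Ly6c2 (ENSMUSG00000022584, chromosome 15, 75108158 to 75111970, minus strand, GRCm38) is the copy that classical monocytes express. Ly6c1 (ENSMUSG00000079018, chromosome 15, 75044018 to 75048830, minus strand) is known from endothelial cells and T cells. The start of their coding sequences is shown because reads can be assigned to either gene only where the letters differ. Positions count from the first base of the start codon, 1 to 150, from the GENCODE M21 transcripts ENSMUST00000100542.9 and ENSMUST00000065408.15, and capitals mark bases that differ between the copies.
Ly6c2: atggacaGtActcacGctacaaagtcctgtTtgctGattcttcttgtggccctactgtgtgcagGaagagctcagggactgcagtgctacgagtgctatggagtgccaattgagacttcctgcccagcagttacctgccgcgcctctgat
Ly6c1: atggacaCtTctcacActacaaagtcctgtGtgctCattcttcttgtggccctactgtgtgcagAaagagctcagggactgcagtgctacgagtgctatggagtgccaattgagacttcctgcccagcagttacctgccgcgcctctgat
In this stretch 6 bases differed. Over the whole coding sequence of 393 bases in each gene, 384 bases were identical (97.71%) and 9 differed, and the longest identical run was 188 bases. Of the 50-base words of the Ly6c2 transcript, 32.99% also occurred in transcripts of other genes (Ly6c1, I830127L07Rik and Ly6a), and for Ly6c1 the share was 36.73%. The handling of reads that fit both genes is a step not given in the sources used here, so the values of this pair are uncertain to that extent.

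The stretches just upstream of the start sites of the pair are shown because they differ in a short match to the sequence bound by PU.1, a transcription factor of myeloid cells. Each line gives 250 bases upstream of a RefSeq start (GRCm38.p6), on the gene's strand, with matches to GAGGAAGT in capitals, and neither window overlaps an exon of its own gene. The windows are chr15:75111972-75112221, minus strand, for Ly6c2 and chr15:75048838-75049087, minus strand, for Ly6c1.
Ly6c2: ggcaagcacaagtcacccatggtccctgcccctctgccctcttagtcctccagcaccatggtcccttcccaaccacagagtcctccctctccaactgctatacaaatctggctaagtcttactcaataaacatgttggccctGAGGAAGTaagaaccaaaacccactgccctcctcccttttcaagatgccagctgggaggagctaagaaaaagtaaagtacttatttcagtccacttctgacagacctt
Ly6c1: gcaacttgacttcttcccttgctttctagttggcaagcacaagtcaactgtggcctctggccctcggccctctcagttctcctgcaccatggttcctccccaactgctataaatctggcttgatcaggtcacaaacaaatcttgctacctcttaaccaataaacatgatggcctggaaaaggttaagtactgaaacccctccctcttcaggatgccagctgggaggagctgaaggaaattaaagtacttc
The Ly6c2 window held 1 match, at position -108, and the Ly6c1 window held 0. A further RefSeq start of Ly6c1 gave a window with 1 match at -127, and a further start of Ly6c2 gave a window with 2, of which that at -142 is the match shown and the other lies at -8. Searched on both strands, GAGGAAGT occurred in 802 of 32851 such windows (2.441%). Ly6c2 was the sole gene with a match among the 9 monocyte genes that the promoter table listed. Csf1r was not listed, so its upstream sequence was not searched. A match describes the letters of the window and no more.

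Ly6c2 had 134, 202 and 195 CPM in the WT libraries and 127, 135, 116 and 114 CPM in the Fpr2KO libraries. WT replicates 2 and 3 lay above every Fpr2KO library, while WT replicate 1 lay just under Fpr2KO replicate 2, so the groups overlapped. The means were 177 ± 37.1 CPM (SD, n = 3) in WT and 123 ± 10.1 CPM (SD, n = 4) in Fpr2KO. The log2 fold change of -0.52 (SE 0.14, 95% interval -0.83 to -0.22) had an unadjusted p of 0.0035 and missed edgeR's threshold after adjustment over all genes (adjusted p = 0.597). The adjusted p was 0.152 by DESeq2 and ran from 0.0693 (without WT replicate 1) to 1.0 over all alternatives, in each of which the value stayed below 0.

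Ly6c1 showed another order of libraries, with 54.0, 65.7 and 70.7 CPM in WT and 71.1, 68.4, 59.95 and 75.3 CPM in Fpr2KO. Its log2 fold change was 0.11 (SE 0.11), and it missed edgeR's threshold (adjusted p = 1.0). It was 0.01 when WT replicate 1 was left out and 0.20 when WT replicate 3 was. There were 2.49, 3.07 and 2.75 Ly6c2 counts per Ly6c1 count in WT and 1.79, 1.98, 1.93 and 1.51 in Fpr2KO. Every WT library lay above every Fpr2KO library in this ratio (2.77 ± 0.291, n = 3, against 1.80 ± 0.209, n = 4). The ratio was chosen after the values had been seen and is given as a description, with no test.

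**Figure D2:**
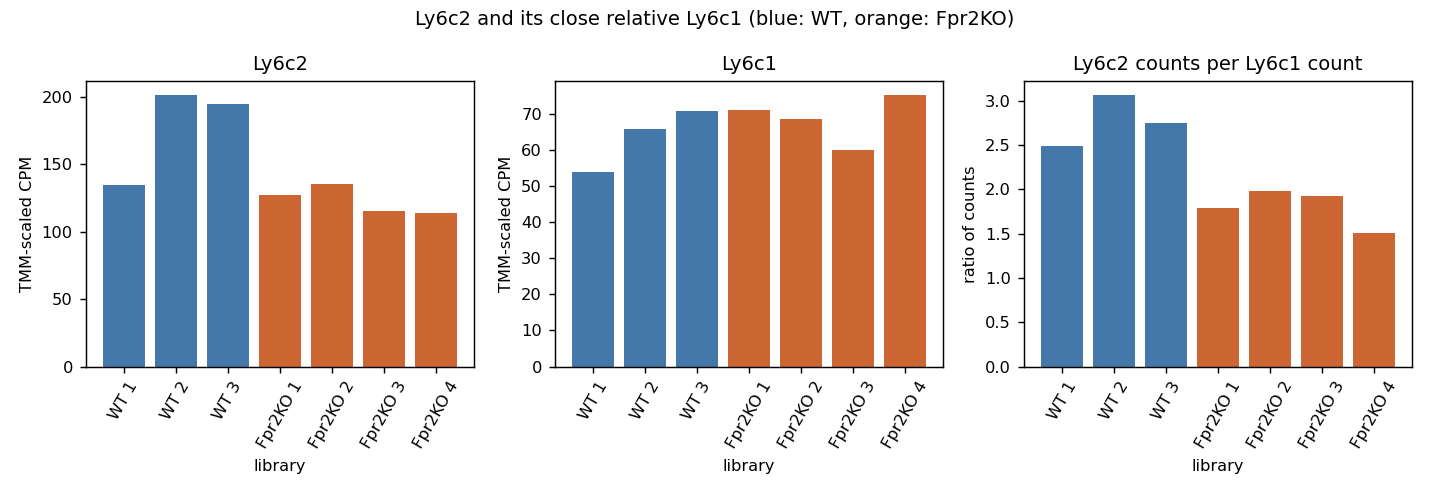
Bars give, for each library (x axis), Ly6c2 and Ly6c1 in TMM-scaled CPM and the number of Ly6c2 counts per Ly6c1 count (y axes, from 0). The ratio lies between 2.49 and 3.07 in WT and between 1.51 and 1.98 in Fpr2KO, while the Ly6c1 bars of the groups overlap.

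Neutrophil markers lay on the same side as Ly6c2. All 10 neutrophil genes were fitted lower in Fpr2KO (median log2 fold change -1.04). Of them 0 passed edgeR's test and 5 passed DESeq2's, which called 60 of 15848 genes in all (0.379%). Their summed level ran from 3689 to 4700 CPM in WT and from 1415 to 2783 CPM in Fpr2KO. Ly6g, a neutrophil relative of Ly6c2 from the same cluster of genes, averaged 12.9 ± 2.59 CPM over the WT libraries (n = 3) and 5.54 ± 2.45 CPM over Fpr2KO (n = 4). The part of neutrophil RNA in the Ly6c2 result was not tested.

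Ccr2 (ENSMUSG00000049103, chromosome 9, 124101950 to 124113557, plus strand) encodes the receptor for Ccl2 that brings classical monocytes into the blood. It had 115, 83.8 and 99.95 CPM in WT and 129.7, 81.3, 117 and 76.6 CPM in Fpr2KO, with the lowest and the highest library both among Fpr2KO. The means were 99.6 ± 15.6 CPM (SD, n = 3) and 101 ± 26.2 CPM (SD, n = 4). The log2 fold change was 0.02 (SE 0.21, adjusted p = 1.0 by edgeR), and its 95% interval ran from -0.46 to 0.50.

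F13a1 (ENSMUSG00000039109, chromosome 13, 36867178 to 37050244, minus strand) encodes the A subunit of coagulation factor XIII, which cross-links fibrin and is made by monocytes, macrophages and megakaryocytes. Its levels were 77.4, 70.0 and 80.3 CPM in WT and 110.1, 54.5, 133 and 62.6 CPM in Fpr2KO. The WT libraries lay close together, while Fpr2KO held libraries both above and below all of WT (coefficient of variation 7.02% in WT and 41.8% in Fpr2KO). The means were 75.9 ± 5.33 CPM (SD, n = 3) and 90.0 ± 37.7 CPM (SD, n = 4), and the log2 fold change of 0.25 (SE 0.33, 95% interval -0.57 to 1.06) missed edgeR's threshold (adjusted p = 1.0). The 5 megakaryocyte and platelet genes ran from 352 to 733 CPM in sum in WT and from 358 to 696 CPM in Fpr2KO, with the higher Fpr2KO sums in replicates 1 and 2 (543 and 696 CPM) and the higher F13a1 levels in replicates 1 and 3. Their part in the F13a1 levels was not tested.

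Vcan (ENSMUSG00000021614, chromosome 13, 89655312 to 89742509, minus strand) encodes versican, a large proteoglycan of the extracellular matrix. It had 30.8, 12.8 and 24.4 CPM in WT and 30.7, 9.71, 28.6 and 15.8 CPM in Fpr2KO. Each group held a library near the highest and a library near the lowest value, and the means were 22.7 ± 9.08 CPM (SD, n = 3) and 21.2 ± 10.1 CPM (SD, n = 4). Its log2 fold change of -0.10 (SE 0.49, adjusted p = 1.0 by edgeR) had the widest interval of the 10 genes, -1.30 to 1.11. The 6 fibroblast genes, a further source of versican, summed to between 260 and 374 CPM in WT and between 328 and 394 CPM in Fpr2KO, and their part in the Vcan levels was not tested.

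Ccr2, F13a1 and Vcan shared an order of libraries. Each was lower in WT replicate 2 than in the other WT libraries, and each was higher in Fpr2KO replicates 1 and 3 than in Fpr2KO replicates 2 and 4. As the mean of the 3 genes' log2 CPM, centred over the 7 libraries, the level was 0.26, -0.36 and 0.10 in WT and 0.49, -0.63, 0.49 and -0.36 in Fpr2KO. Ly6c2 took no part in this order, with 0.50 and 0.45 on the same centred scale in WT replicates 2 and 3 and values from -0.32 to -0.07 in Fpr2KO. For these 3 genes the SD within Fpr2KO exceeded the difference between the group means. The pattern was chosen after the values had been seen and is given as a description over 7 libraries.

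**Figure D3:**
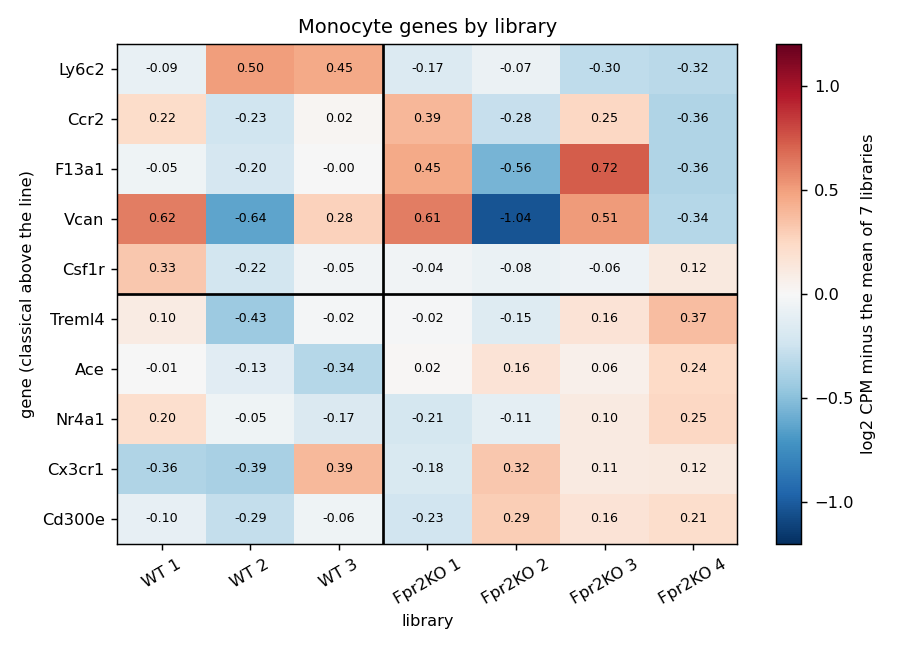
Rows are the 10 monocyte genes and columns the 7 libraries, with colour and printed value for log2 CPM minus the gene's mean over the libraries; lines divide the groups and the classical from the non-classical genes. Ccr2, F13a1 and Vcan are above 0 in Fpr2KO replicates 1 and 3 and below 0 in replicates 2 and 4, while Ly6c2 is below 0 in all 4 Fpr2KO libraries.

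Csf1r (ENSMUSG00000024621, chromosome 18, 61100598 to 61132149, plus strand) encodes the receptor for the growth factors Csf1 and Il34, on which monocytes and macrophages depend. Non-classical monocytes and tissue macrophages express it too, so of the classical genes it is the least specific. It had 883, 603 and 681 CPM in WT and 685, 665, 676 and 763 CPM in Fpr2KO, and the Fpr2KO libraries all lay within the WT range. The means were 723 ± 144 CPM (SD, n = 3) and 697 ± 44.7 CPM (SD, n = 4), with a log2 fold change of -0.05 (SE 0.13, 95% interval -0.33 to 0.23, adjusted p = 1.0 by edgeR). The 10 red pulp macrophage genes had a median log2 fold change of 0.05, with sums from 4478 to 5251 CPM in WT and from 4380 to 5390 CPM in Fpr2KO, and their part in the Csf1r level was not tested. Hmgxb3 shares 873 exon bases with Csf1r on the opposite strand, and without a stated strand setting reads from those bases cannot be assigned to either gene.

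Treml4 (ENSMUSG00000051682, chromosome 17, 48264295 to 48275360, plus strand) encodes a receptor of the TREM family that splenic non-classical monocytes, red pulp macrophages and cross-presenting dendritic cells carry. It had 109.8, 75.9 and 101 CPM in WT and 101, 92.1, 115 and 132 CPM in Fpr2KO. The lowest library was WT replicate 2 and the highest Fpr2KO replicate 4, with the others mixed between them. The means were 95.6 ± 17.6 CPM (SD, n = 3) and 110.1 ± 17.5 CPM (SD, n = 4), and the log2 fold change was 0.20 (SE 0.15, 95% interval -0.14 to 0.55, adjusted p = 1.0 by edgeR). Leaving out WT replicate 2 gave 0.06, and leaving out WT replicate 1 gave 0.32. The 5 genes of type 1 dendritic cells had a median log2 fold change of 0.30, with sums from 143 to 176 CPM in WT and from 165 to 205 CPM in Fpr2KO, and their part in the Treml4 level was not tested.

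Ace (ENSMUSG00000020681, chromosome 11, 105967945 to 105989964, plus strand) encodes angiotensin-converting enzyme, which endothelial cells and non-classical monocytes both carry. It had 28.4, 26.0 and 22.5 CPM in WT and 28.9, 32.0, 29.7 and 33.8 CPM in Fpr2KO. Every Fpr2KO library lay above every WT library, by a small margin between Fpr2KO replicate 1 and WT replicate 1. The means were 25.7 ± 2.96 CPM (SD, n = 3) and 31.1 ± 2.21 CPM (SD, n = 4), with a log2 fold change of 0.28 (SE 0.11, 95% interval 0.03 to 0.52). Its unadjusted p was 0.0294, and it did not pass edgeR's test after adjustment (adjusted p = 0.945). The 5 endothelial genes were all fitted lower (median log2 fold change -0.13), with sums from 522 to 645 CPM in WT and from 489 to 541 CPM in Fpr2KO. Without WT replicate 1, 3 of these 5 were fitted higher (median 0.03), and the part of endothelial RNA in the Ace level was not tested.

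Nr4a1 (ENSMUSG00000023034, chromosome 15, 101254269 to 101274795, plus strand) encodes an orphan nuclear receptor that non-classical monocytes need, and it is also an immediate early gene that many cell types induce within minutes of stimulation. The stretch upstream of a RefSeq start (GRCm38.p6, chr15:101266596-101266845, plus strand) is shown because it held matches to the CRE-like sequence TGCGTCA, given in capitals, of the kind bound by CREB, which couples cell signals to immediate early genes.
Nr4a1: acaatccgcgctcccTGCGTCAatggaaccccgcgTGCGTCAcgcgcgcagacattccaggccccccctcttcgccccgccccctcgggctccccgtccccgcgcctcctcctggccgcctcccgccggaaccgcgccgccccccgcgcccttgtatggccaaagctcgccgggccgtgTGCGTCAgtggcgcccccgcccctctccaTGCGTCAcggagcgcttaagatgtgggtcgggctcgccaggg
The 4 matches lay at -235, -215, -71 and -42. TGCGTCA occurred on either strand in 574 of 32851 windows (1.747%), and no other window held 4 or more. No other listed monocyte gene's window held it. AAAGGTCA, the site that a single NR4A receptor binds, was in 0 of the 12 windows of the 9 listed genes. Of all windows 1.336% held AAAGGTCA.

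Nr4a1 had 39.9, 33.6 and 30.8 CPM in WT and 30.1, 32.1, 37.4 and 41.3 CPM in Fpr2KO, so that both groups covered about the same range. The means were 34.8 ± 4.68 CPM (SD, n = 3) and 35.3 ± 5.07 CPM (SD, n = 4), and the log2 fold change was 0.02 (SE 0.13, 95% interval -0.28 to 0.32, adjusted p = 1.0 by edgeR). The 9 other immediate early genes were all fitted lower (0 passing edgeR's test, median log2 fold change -0.23), with sums from 235 to 322 CPM in WT and from 178 to 252 CPM in Fpr2KO. Their median was -0.09 without WT replicate 1, with 1 of 9 fitted higher. Their part in the Nr4a1 level was not tested.

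Cx3cr1 (ENSMUSG00000052336, chromosome 9, 119901616 to 120069879, minus strand) encodes the receptor for fractalkine, the ligand Cx3cl1, which keeps non-classical monocytes alive and on the vessel wall. It had 22.8, 22.2 and 38.2 CPM in WT and 25.7, 36.5, 31.6 and 31.7 CPM in Fpr2KO. WT replicate 3 was the highest of all 7 libraries, while the other WT libraries were the lowest. The means were 27.7 ± 9.08 CPM (SD, n = 3) and 31.4 ± 4.40 CPM (SD, n = 4), and the log2 fold change was 0.18 (SE 0.20, 95% interval -0.29 to 0.64, adjusted p = 1.0 by edgeR). Its size moved most with the WT libraries: it was 0.05 without WT replicate 1, 0.04 without WT replicate 2 and 0.48 without WT replicate 3 (edgeR adjusted p = 0.996, 1.0 and 0.517). It was 0.27 without Fpr2KO replicate 1 and 0.10 without Fpr2KO replicate 2. The 6 NK cell genes, from a cell type that can also carry Cx3cr1, had a median log2 fold change of 0.13, with sums from 125 to 131 CPM in WT and from 137 to 153 CPM in Fpr2KO, and their part in the Cx3cr1 level was not tested.

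Cd300e (ENSMUSG00000048498, chromosome 11, 115051917 to 115062177, minus strand) encodes an activating receptor of the CD300 family found on monocytes. It had 32.2, 28.2 and 33.2 CPM in WT and 29.4, 42.3, 38.6 and 40.0 CPM in Fpr2KO. Fpr2KO replicates 2, 3 and 4 lay above all WT libraries, and Fpr2KO replicate 1 lay within the WT range. The means were 31.2 ± 2.61 CPM (SD, n = 3) and 37.6 ± 5.64 CPM (SD, n = 4), and the log2 fold change of 0.27 (SE 0.13, 95% interval -0.02 to 0.56, unadjusted p = 0.0663) missed edgeR's threshold (adjusted p = 1.0).

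**Figure D4:**
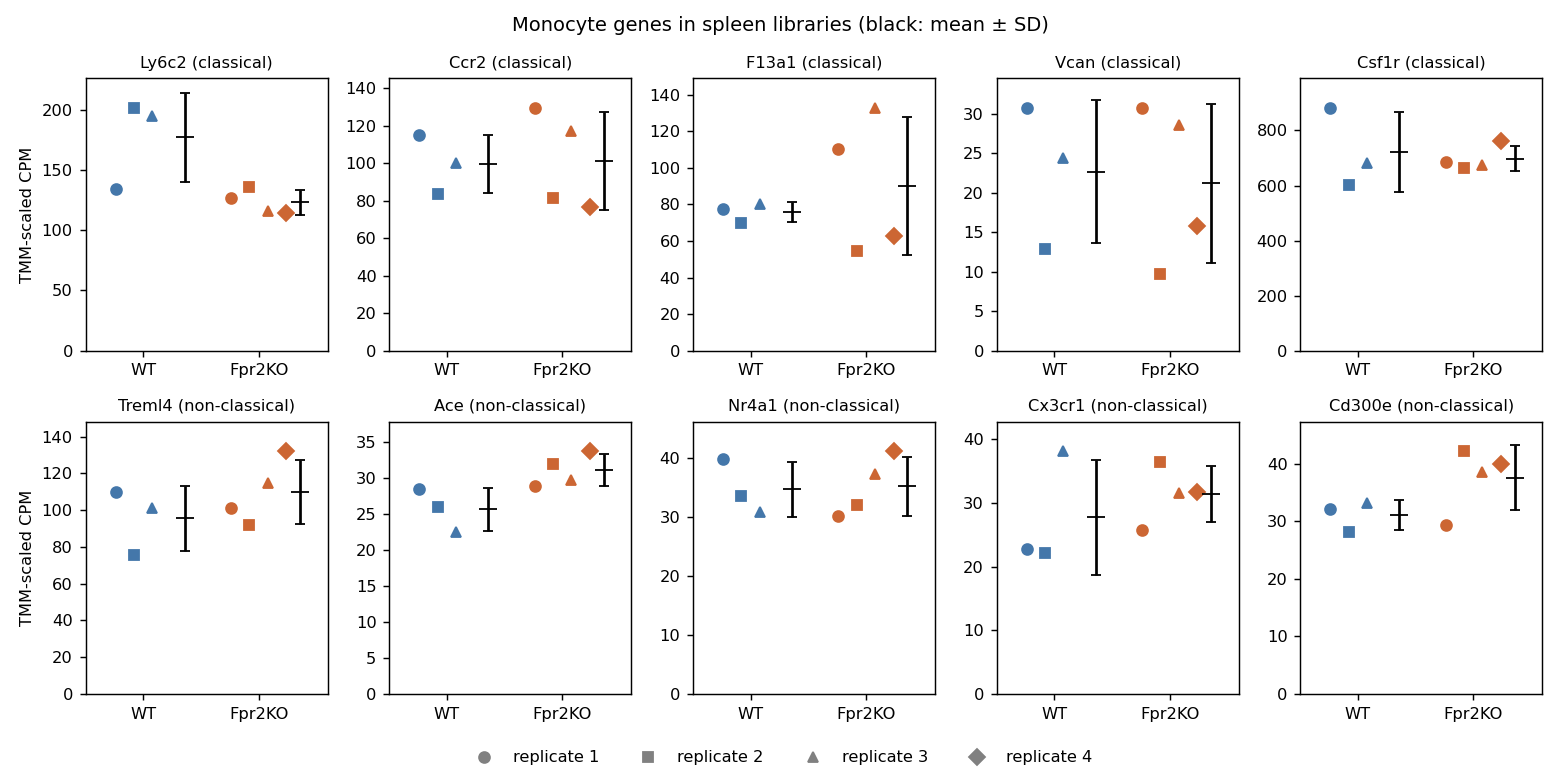
Each panel plots TMM-scaled CPM (y axis, from 0) of a monocyte gene in the WT and Fpr2KO libraries (x axis), with a marker shape for each replicate number and black bars for mean ± SD (n = 3 and n = 4). Ace is the panel without overlap between the groups, and in the Ly6c2 panel WT replicate 1 at 134 CPM lies level with Fpr2KO.

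Fpr2KO replicates 1 and 2 had the highest sums of acinar genes. Without them 0 of the 10 monocyte genes passed edgeR's test. On the log2 fold change scale Ly6c2 was then at -0.62, Ace at 0.32, Cd300e at 0.34, Treml4 at 0.38 and Cx3cr1 at 0.19. The 5 genes other than these changed sign in at least 1 alternative. In the fit of all libraries those 5 had intervals on both sides of 0, and so did Treml4, Cx3cr1 and Cd300e.

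Levels of different genes were compared in WT as CPM per kilobase of merged exons. Csf1r stood highest with 125 ± 25.0 (SD, n = 3), above Ly6c2 with 64.5 ± 13.5 and Treml4 with 47.9 ± 8.81. Cd300e (14.9 ± 1.25), Ccr2 (14.7 ± 2.30), F13a1 (11.3 ± 0.790) and Nr4a1 (9.91 ± 1.33) followed, and Cx3cr1 (6.16 ± 2.02), Ace (4.85 ± 0.560) and Vcan (1.57 ± 0.628) were lowest. The WT ranges of Ly6c2 and Treml4, of Cd300e and Ccr2, of F13a1 and Nr4a1, and of Cx3cr1 and Ace overlapped, so the order within these pairs is not settled by 3 libraries, while the other neighbours did not overlap. The order also depended on the length used. The merged exons of Ly6c2 span 2740 bases, and per kilobase of its longest coding transcript (822 bases) it had 215 CPM against 154 for Csf1r. By the same measure F13a1 (19.2) stood above Ccr2 (17.4) and Cd300e (14.9), so the order of these genes is not settled either.

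Further genes of the same cells were counted from lists, none of which held a gene passing edgeR's test. Of 12 other classical monocyte genes, 5 were fitted higher and 7 lower (median log2 fold change -0.04, against -0.00 over all genes tested), and without Fpr2KO replicate 2 the split was 7 higher and 5 lower (median 0.04). Clec4e, which encodes the Mincle receptor for mycobacterial glycolipid and is shared with neutrophils, had 44.4, 24.6 and 21.2 CPM in WT and 12.8, 10.5, 14.8 and 10.4 CPM in Fpr2KO, with no overlap. Its log2 fold change of -1.31 (SE 0.26) had an adjusted p of 0.479 by edgeR and 0.0002 by DESeq2. Haptoglobin (Hp) was at -0.76 and Chil3, a chitinase-like protein, at -0.86, with edgeR adjusted p of 1.0 each, and neutrophils are known to express both. Chil3 was at -0.46 without WT replicate 2. The summed neutrophil markers given beside Ly6c2 moved the same way, and their part in these values was not tested.

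Of 12 tested non-classical genes beyond the 5, 9 were fitted higher and 3 lower, with a median of 0.09. Fcgr4, the Fc receptor that non-classical monocytes use to bind IgG, averaged 57.4 ± 8.77 CPM over the WT libraries (n = 3) and 74.5 ± 7.30 CPM over Fpr2KO (n = 4), a log2 fold change of 0.38 (edgeR adjusted p = 0.834). Fabp4, a fatty acid binding protein, went the other way, at 18.0 ± 2.57 and 12.7 ± 2.03 CPM with no overlap (-0.50, adjusted p = 0.817). S1pr5, the sphingosine phosphate receptor through which such monocytes leave the bone marrow, was at 0.50 (adjusted p = 1.0), and at 0.27 without Fpr2KO replicate 4.

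**Figure D5:**
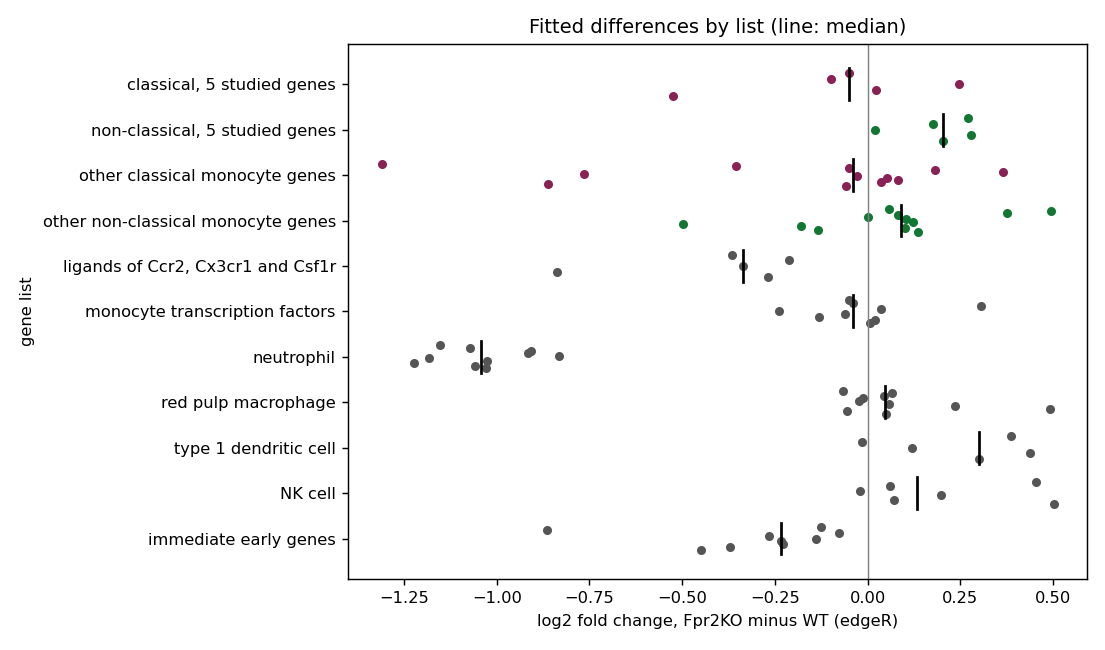
Points give the log2 fold change (x axis, edgeR, Fpr2KO minus WT) of each tested gene in a list (y axis), and black lines the list's median. The classical lists sit on both sides of 0, the 5 non-classical genes all lie above 0, and all 10 neutrophil genes lie below 0. Of the 12 other non-classical genes tested, 9 lie above 0 and 3 below.

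The ligands of these receptors were fitted lower in 5 of 5 tested, with a median of -0.34 and 0 passing edgeR's test. Il34, a ligand of Csf1r, averaged 15.7 ± 1.53 CPM over the WT libraries (n = 3) and 12.2 ± 0.721 CPM over Fpr2KO (n = 4), with no overlap (-0.37, edgeR adjusted p = 0.850). Csf1 was at -0.21 and Ccl12, a ligand of Ccr2, at -0.84, both with an adjusted p of 1.0. Ccl12 was low, with 11, 11 and 40 counts in WT and 4, 24, 13 and 12 in Fpr2KO. The values of Ccl12 and Csf1 rested on single libraries. Without WT replicate 3 Ccl12 was at 0.01, and the ligands split into 2 higher and 3 lower (median -0.18). Without WT replicate 1 Csf1 was at -0.00027. Il34 stayed between -0.44 and -0.31 with any single library left out. With limma-voom 1 ligand was fitted higher and 4 lower. Among 9 transcription factors of monocytes, 4 were fitted higher and 5 lower (median -0.04). With a single library left out, this ran from 1 higher and 8 lower (Fpr2KO replicate 4) to 5 higher and 4 lower (WT replicate 3 or Fpr2KO replicate 1 or 2). The split was 6 higher and 3 lower with limma-voom, and also without both Fpr2KO replicates 1 and 2. Zeb2, which preserves macrophage and monocyte identity, was at 0.31 (adjusted p = 0.988), Cebpa, which starts the myeloid programme, at -0.24 and Klf4, which classical and patrolling monocytes need, at -0.13. Without WT replicate 2 Zeb2 was at 0.18, without WT replicate 3 Cebpa was at -0.14, and without WT replicate 1 Zeb2 was at 0.46 and Klf4 at 0.0082.

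Relatives of the monocyte genes were read from the same fit. In the Ly6 family 2 of 7 tested genes were fitted higher and 5 lower (median -0.10). Ly6k (-1.34) and Ly6g (-1.22) passed DESeq2's test, which called 0.379% of all genes given an adjusted p, while Ly6i was at 0.36. Without WT replicate 3 the family's median was -0.04 and Ly6i was at 0.72, and without WT replicate 1 Ly6i was at 0.21. In the TREM family, beside Treml4 at 0.20, 1 of 5 was fitted higher and 4 lower (median -0.41), with Trem3 at -0.77, Trem1 at -0.79 and Treml2 at -0.19. The TREM median was -0.21 without WT replicate 3, and Trem1 was at -0.29 without WT replicate 1. All 7 other CD300 genes were fitted lower (median -0.20), beside Cd300e at 0.27, with Cd300lf at -0.64, Cd300ld at -0.42 and Cd300lg at -0.20. Without WT replicate 1 that CD300 median was -0.11, with 1 of 7 fitted higher, Cd300lf at -0.31 and Cd300ld at -0.22, and without Fpr2KO replicate 2 the median was -0.13. Of the 4 chemokine receptors in the cluster that holds Ccr2, Ccr3, an eosinophil receptor, was at 0.42 without overlap between the groups, and Ccr1, shared by neutrophils and monocytes, was at -0.88, with edgeR adjusted p of 0.753 and 0.924, and Ccr1 was at -0.53 without WT replicate 1. The differences between the monocyte genes and their relatives were not tested.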

How the data were processed

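Polyadenylated RNA of mouse spleen was sequenced in 7 samples (3 WT, 4 Fpr2KO). Per the labels' protocols, RNA came from an RNeasy Plus Universal Mini kit (Qiagen) and libraries from a NEBNext Ultra II RNA kit. The authors deposited raw counts of reads per Ensembl gene, made with HTSeq 0.10.0 on mm10 (GRCm38) after FastQC 0.10.1, per the submitters' processing notes. Steps not given in the sources used here are the aligner, annotation release and strand setting.

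Symbols and coordinates were taken by gene ID from GENCODE M21 (GRCm38). Of 55414 IDs, 52133 matched, with 99.84% of counts, and 3281 did not, so the authors' annotation may be of another release. The comparison used edgeR 4.0.16 under R 4.3.3 (TMM, filterByExpr defaults, robust quasi-likelihood F test), with Benjamini-Hochberg adjustment over 16089 genes and a threshold of 0.05. Centred log2 CPM used a prior count of 2. Alternatives were DESeq2 1.42.0, limma-voom (3.58.1) with quality weights, scaling by RLE or the upper quartile, other low count filters, robust estimation off, library sizes that leave out globin, immunoglobulin and mitochondrial genes, a replicate block, each library left out, and Fpr2KO replicates 1 and 2 left out. Promoters were RefSeq windows of 250 bases, and shared sequence was counted in words of 50 bases.

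The genes and lists were chosen with earlier results of these data known. Named are the 10 genes, Fpr2, Ly6c1 and, from each related list, up to 3 genes with the smallest p and any that passed. From lists of other cell types, counts and sums are given. The labels number replicates without saying that they are separate animals, so the p-values rest on the spread among these samples, which may be technical. The reads carry no molecular identifiers and are not independent molecules, so floors cover counting error only. The edgeR step was tested on counts simulated for this comparison (15855 genes, 50 changed at each fold size). It found 26% at 1.5-fold, 66% at 2-fold, 94% at 3-fold and 90% at 4-fold, and 12 of its 150 calls were false.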

Additional observations from a re-analysis of the deposited data

How the results depend on the processing

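The 10 monocyte genes were refitted under 17 alternatives, which gave 170 values. Of these 153 kept the direction and the side of the threshold, 17 turned direction and 0 passed the test, with 0.0693 the lowest adjusted p (Ly6c2 without WT replicate 1). Ly6c2, Treml4, Ace, Cx3cr1 and Cd300e kept their direction in all 17. When each library was left out in turn, log2 fold changes ran from -0.11 to 0.14 for Ccr2, from -0.0033 to 0.42 for F13a1, from -0.38 to 0.18 for Vcan, from -0.17 to 0.12 for Csf1r and from -0.0649 to 0.13 for Nr4a1. Vcan was at 0.13 and Csf1r at 0.0297 with limma-voom, and Ccr2 was at -0.0349 and Csf1r at 0.0013 without Fpr2KO replicates 1 and 2. The cause of these turns was not tested. The count of genes called in the whole table was 6, and became 60 with DESeq2, 21 with no low count filter and between 5 and 15 with a library left out. Samples with the same replicate number did not deviate together (correlations 0.08, -0.43 and -0.07), so the numbers were not taken to pair the samples. With the replicate block 2 genes were called, none of the 10 among them, and Nr4a1 was at -0.0627. On simulated data 26% of genes changed 1.5-fold were recovered, and all 10 fitted differences were smaller than that, which limits what a miss can show. The simulation made 150 calls against 6 here, so adjustment asked for a smaller unadjusted p here, and recovery in these data may be lower than 26%.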
